A study of Rattus norvegicus with 6 samples.

Results

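The circadian clock genes Arntl, Per1, Per2, Per3, Cry1, Cry2, Nr1d1, Nr1d2, Dbp and Nfil3 were examined in rat liver as a view on the time of sampling, for which the labels give no hour. They are the 10 genes named for this purpose, and every probe set whose platform annotation carries one of these symbols was taken, with Bmal1, the symbol the annotation uses, read as Arntl. This gave 15 probe sets of 31099 on the array. The momfluorothrin group was 3 male BrlHan:WIST@Jcl(GALAS) rats that ate a powdered diet to which the pyrethroid insecticide epsilon-momfluorothrin had been added, over 2 weeks. The dose is 3000 ppm in the titles and treatment protocol and 5000 ppm in the other labels, and is not settled here. The control group was 3 male rats of the same strain on the diet without the compound (0 ppm). All animals were 7 weeks old, and the labels give no time of day, feeding schedule, hybridisation batch or date.

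The mammalian clock is a feedback loop of transcription that runs in nearly every cell, the hepatocyte included. ARNTL pairs with CLOCK and activates genes with E-box elements, among them the Per and Cry genes, whose proteins return to the nucleus and shut ARNTL and CLOCK down. A second loop is formed by the receptors NR1D1 and NR1D2, which repress Arntl through ROR response elements (ROREs). DBP activates and NFIL3 represses a further class of genes through D-box elements. In the livers of mice and rats Arntl transcripts are high around the end of the night, when Dbp and Nr1d1 transcripts are low, and the swing of Dbp and Nr1d1 over a day is among the widest of any liver transcript. For that reason these genes are read as an internal mark of the hour at which a liver was taken.

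A promoter of 3 of the 10 genes carried the letters of such an element in the bases before the start site, and those stretches are shown because such letters are what the factors named above are known to bind. RefSeq promoter windows of build GRCr8, with 250 bases before and 50 after a start, were found for 9 of the 10 genes (10 windows, as Nr1d1 had 2). Capitals mark the matched letters, each searched on both strands.
Arntl, RORE core, chr1:176766272-176766327, plus strand: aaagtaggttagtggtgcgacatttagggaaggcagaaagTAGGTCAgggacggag
Per2, D-box, chr9:99497138-99497225, minus strand: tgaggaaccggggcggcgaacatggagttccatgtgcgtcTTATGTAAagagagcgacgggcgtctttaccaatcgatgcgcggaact
Nr1d1, E-box, chr10:84229600-84229685, minus strand: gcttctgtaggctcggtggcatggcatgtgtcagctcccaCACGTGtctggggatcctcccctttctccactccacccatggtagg
The RORE core TAGGTCA lay at bases -16 to -10 from the Arntl start and occurs in 2.63% of all 33469 promoter windows. The D-box, searched as TTANGTAA, lay at -192 to -185 from the Per2 start (2.24% of windows). The E-box CACGTG lay at -191 to -186 in 1 of the Nr1d1 windows (6.42% of windows). The full glucocorticoid response element (both half-sites) was in no window of the 10 genes and in 0.439% of all windows. A match is a stretch of letters and not a measured binding site, and elements outside these windows were not searched.

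The trimmed mean signal was 100 on each array, which reflects the scaling of the deposited values and does not show that the arrays were alike. Array medians were 23.1 to 26.5 in momfluorothrin livers and 27.0 to 29.4 in control livers, without overlap. Signals are linear and in the arbitrary units of the array software. Probe sets brighter than the median of the array on 3 or more of the 6 arrays were tested, 15778 in all. The 5 measured hepatocyte markers (Alb, Apoa1, Ttr, Serpina1, Fgb) summed to 37498 to 44108 in momfluorothrin livers and 42262 to 48108 in control livers. The 3 Kupffer cell markers summed to 660 to 729 in momfluorothrin and 700 to 896 in control livers, and the 4 endothelial markers to 1347 to 1436 in momfluorothrin and 1089 to 1417 in control livers. The 4 stellate cell markers summed to 349 to 432 in momfluorothrin and 327 to 478 in control livers. The 3 cholangiocyte markers summed to 143 to 167 in momfluorothrin and 87.6 to 111 in control livers and the 4 blood markers to 3492 to 5205 in momfluorothrin and 3967 to 4208 in control livers. The 4 pancreas and fat markers summed to 47.2 to 54.2 in momfluorothrin and 56.9 to 70.9 in control livers. Of the last 3 lists, Krt7, Cd3e, Cpa1, Prss1 and Adipoq exceeded the median on no array and Krt19 on 2, whereas Epcam, Cfd, Hbb, Alas2 and Slc4a1 exceeded it on all 6. Epcam, a marker of cholangiocytes, gave 138, 107 and 134 in momfluorothrin livers and 67.1, 83.1 and 95.1 in control livers, with no overlap and a log2 difference of 0.63 ± 0.16 (SE; limma adjusted p = 0.22). Groups did not overlap in 17.8% of all tested probe sets. The part of these markers in the values below was not tested.

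Of the 15 clock probe sets, 10 were tested, and these 10 exceeded the array median on all 6 arrays. They covered 8 of the 10 genes, and 14217 genes in all had a probe set annotated to them alone. Nr1d1 and Per3 were not tested, since none of their 3 probe sets exceeded the median on any array, and further probe sets of Per2 and Nr1d2 were as dim. None of the 10 tested probe sets passed the threshold of 0.05 on the adjusted p, in limma with Benjamini-Hochberg adjustment over all tested probe sets (adjusted p = 0.432 to 0.938). Over the whole array 0.171% of tested probe sets passed. At an unadjusted p under 0.05 there were 2 of the 10, Cry1 and Nfil3, both lower in momfluorothrin livers, where 6.64% of all tested probe sets were lower and 4.92% higher at that level. The 3 momfluorothrin arrays lay apart from the 3 control arrays in 1 of the 10, Nfil3, and it was lower there; groups did not overlap in 17.8% of all tested probe sets, and in 10.4% momfluorothrin was the lower. Every 95% interval of the 10 lay within a 1.67-fold change in either direction. Fewer cells of a type and less RNA per cell cannot be told apart in whole liver.

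**Figure D1:**
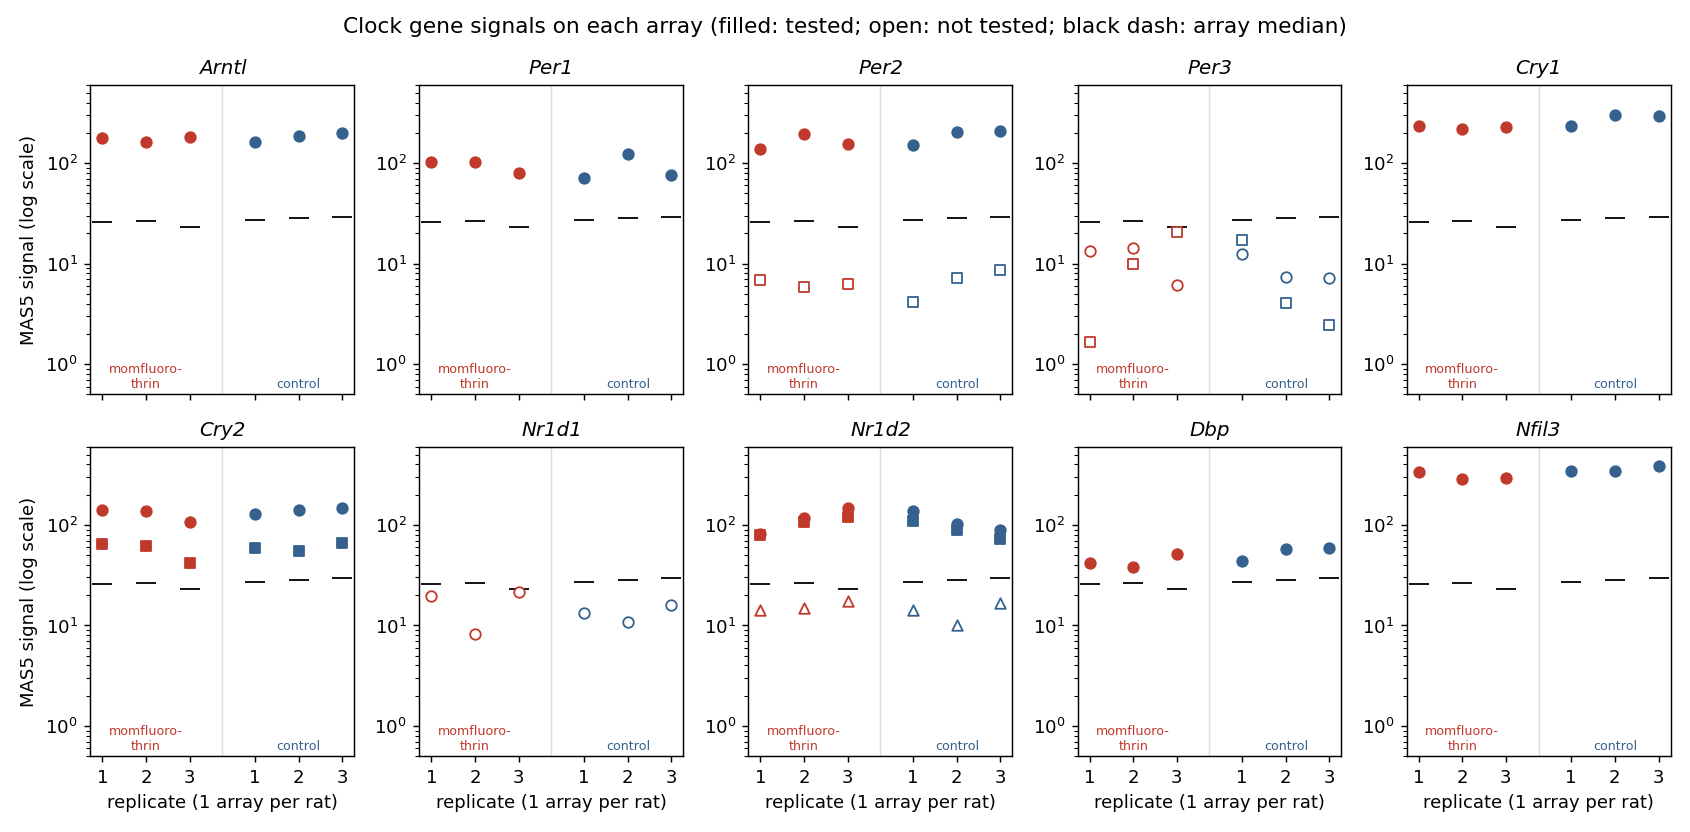
Signal of every clock gene probe set on each array, on a log axis, with momfluorothrin rats in red on the left and control rats in blue on the right of each panel. Marker shapes separate probe sets of 1 gene, filled markers were tested and open markers were not, and the black dash is the array's median. The filled markers stand above the dash on all 6 arrays, and the groups overlap in every panel but that of Nfil3.

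Arntl, the activator of the main loop, had signals of 178, 164 and 182 in momfluorothrin livers and 161, 188 and 200 in control livers. The momfluorothrin values lay inside the range of the control values. The means were 175 ± 9.35 in momfluorothrin and 183 ± 19.8 in control livers (SD, n = 3 each). They differed by -0.06 ± 0.12 on the log2 scale (SE; limma adjusted p = 0.868), with a 95% interval of -0.33 to 0.20. The highest array stood 1.24-fold above the lowest, against a median of 1.46-fold over all tested probe sets.

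The period genes encode the repressors whose transcripts are activated through E-boxes, and Per1 also answers glucocorticoids. Per1 had signals of 103, 102 and 80.7 in momfluorothrin livers and 71.1, 124 and 75.4 in control livers. Control replicate 2 was the highest of all 6 and the other 2 control rats the lowest. The means were 95.1 ± 12.4 in momfluorothrin and 90.3 ± 29.6 in control livers (SD, n = 3 each), and the log2 difference was 0.11 ± 0.22 (SE; limma adjusted p = 0.869). Without control replicate 1 it was -0.04, and without control replicate 2 it was 0.37.

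Per2 gave 138, 195 and 156 in momfluorothrin livers and 152, 205 and 207 in control livers. Replicate 1 was the lowest of its group in each, and the ranges overlapped. The log2 difference was -0.20 ± 0.17 (SE; limma adjusted p = 0.67). It was -0.35 without control replicate 1, -0.34 without momfluorothrin replicate 2, -0.09 without momfluorothrin replicate 1 and -0.03 with each array centred on its median. A second Per2 probe set stayed dim at 5.88 to 6.92 in momfluorothrin and 4.14 to 8.61 in control livers.

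Per3, the remaining period gene, was not above the median on any array. Its probe sets gave 6.1 to 14.3 and 1.66 to 20.7 in momfluorothrin livers and 7.23 to 12.6 and 2.43 to 17.2 in control livers. The 2 probe sets did not rank the rats alike (Pearson r = -0.07 over 6 arrays, exact permutation p = 0.922, adjusted p = 0.922 over 6 such pairs; Spearman rho = -0.31, exact permutation p = 0.564, adjusted p = 0.564), and without the 2 arrays farthest from the median r was 0.24. No level or difference was read from either.

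The cryptochromes are the partners of the period proteins in the repressor complex. Cry1 had signals of 236, 220 and 230 in momfluorothrin livers and 235, 302 and 293 in control livers. The momfluorothrin rats lay close together and beside control replicate 1, while the other 2 control rats were higher. The means were 229 ± 8.45 in momfluorothrin and 277 ± 36.2 in control livers (SD, n = 3 each), with a log2 difference of -0.27 ± 0.12 (SE). In limma the p was 0.0498 unadjusted and 0.432 adjusted. Cry1 was lower in momfluorothrin livers under each alternative tried, with log2 differences of -0.38 (without control replicate 1) to -0.10 (arrays centred on their medians) and adjusted p of 0.33 to 0.754.

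Cry2 was measured by a pair of tested probe sets. The brighter gave 141, 137 and 108 in momfluorothrin livers and 128, 142 and 146 in control livers, and the dimmer gave 64.5, 61.5 and 42.2 in momfluorothrin and 59.0, 54.7 and 66.4 in control livers. Momfluorothrin replicate 3 was the lowest of 6 on both, and the groups overlapped on both. The log2 differences were -0.12 ± 0.14 and -0.12 ± 0.20 (SE; limma adjusted p = 0.77 and 0.843). Without momfluorothrin replicate 3 the difference of the brighter probe set was 0.00. Across the arrays the pair correlated at Pearson r = 0.89 (exact permutation p = 0.05, adjusted p = 0.15 over 6 pairs of probe sets of 1 gene) and Spearman rho = 0.66 (exact permutation p = 0.175, adjusted p = 0.484), and at r = 0.26 without the 2 arrays farthest from the median, so that their likeness rests on those arrays.

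NR1D1 and NR1D2, also called REV-ERB alpha and beta, are heme-binding receptors that repress Arntl. Nr1d1 had dim signals of 19.6, 8.13 and 21.6 in momfluorothrin livers and 13.2, 10.8 and 15.8 in control livers, each under the median of its array. The momfluorothrin rats held the lowest value and the 2 highest. No fold is given, since neither group was above the median.

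Nr1d2 gave 80.7, 118 and 149 on its brightest probe set in momfluorothrin livers and 137, 101 and 89.7 in control livers. The rats of each group spread across nearly the same range. The log2 difference was 0.06 ± 0.24 (SE; limma adjusted p = 0.938), and the other tested probe set gave 0.18 ± 0.20 (adjusted p = 0.766). The spread was shared by both probe sets, the second of which had 79.7, 108 and 120 in momfluorothrin and 110, 89.4 and 72.7 in control livers. Across the 6 arrays they correlated at Pearson r = 0.94 (exact permutation p = 0.0125, adjusted p = 0.075 over 6 pairs of probe sets of 1 gene) and Spearman rho = 0.94 (exact permutation p = 0.0167, adjusted p = 0.1), and at r = 0.94 without the 2 arrays farthest from the median. A further probe set stayed at 14.2 to 17.4 in momfluorothrin and 10.2 to 16.9 in control livers. Without momfluorothrin replicate 3 the difference of the brightest probe set was -0.14, without momfluorothrin replicate 1 it was 0.30, and without control replicate 3 it was -0.07.

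DBP and NFIL3 carry the rhythm to output genes through the D-box, DBP as activator and NFIL3 as repressor. Dbp had signals of 42.0, 37.8 and 51.5 in momfluorothrin livers and 44.0, 57.7 and 59.0 in control livers. The lower 2 momfluorothrin rats lay under every control rat and the other one lay among them. The means were 43.8 ± 7.04 in momfluorothrin and 53.6 ± 8.3 in control livers (SD, n = 3 each), and the log2 difference was -0.29 ± 0.20 (SE; limma adjusted p = 0.6) with a 95% interval of -0.74 to 0.16. With arrays centred on their medians it was -0.12, and without 1 array it was -0.43 to -0.19. The highest of the 6 rats stood 1.56-fold above the lowest.

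Nfil3 gave 336, 286 and 292 in momfluorothrin livers and 347, 344 and 382 in control livers. On the deposited signals each momfluorothrin rat was below each control rat. The array medians were also lower in the momfluorothrin group, and their part in this separation was not tested. The means were 305 ± 27.1 in momfluorothrin and 358 ± 21.6 in control livers (SD, n = 3 each), with a log2 difference of -0.23 ± 0.10 (SE). In limma the p was 0.0496 unadjusted and 0.432 adjusted. The sign held under each alternative, with differences of -0.30 (without momfluorothrin replicate 1) to -0.06. The smallest, -0.06, came with arrays centred on their medians (limma adjusted p = 0.847).

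**Figure D2:**
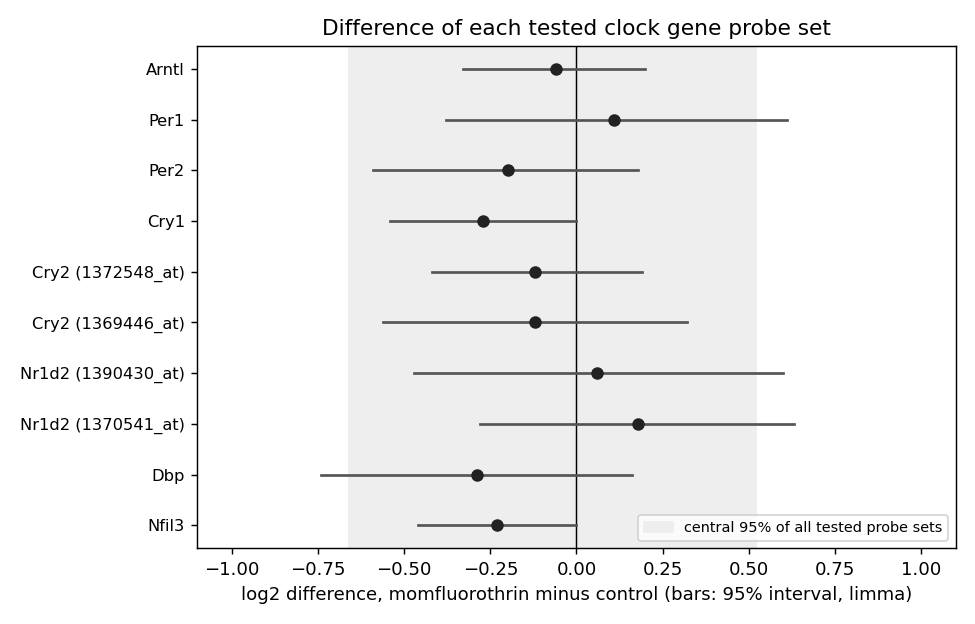
Log2 difference of momfluorothrin minus control for the 10 tested clock probe sets (points) with the 95% interval from limma (bars). The grey band holds the central 95% of all 15778 tested probe sets, -0.66 to 0.52, and every point lies inside it.

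As a list, 6 of the 8 tested genes were lower and 2 were higher in momfluorothrin livers, with none past the threshold. The median log2 difference of the 10 probe sets was -0.12, against -0.03 over all tested probe sets. The medians depended on scaling: with each array centred on its median they were 0.05 for the clock probe sets and 0.14 for all, and the Arntl and Cry2 differences then became 0.11 and 0.05. In each of these scalings the clock probe sets lay slightly below the whole array.

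Signals differed between the arrays of 1 group, and not every gene followed the same array. With 1 array per rat, differences between rats and between arrays cannot be told apart. The control array medians were 27.0, 28.5 and 29.4 in replicates 1, 2 and 3, and their part in the order below was not tested. How often all tested probe sets took that order was not counted. In the control group replicate 1 had the lowest signal for 6 of the 8 tested genes (Arntl, Per1, Per2, Cry1, Cry2 and Dbp) and the highest for Nr1d2, and replicate 3 had the highest for 5 and the lowest for Nr1d2. On the log2 scale control replicate 1 lay 0.35 above the control mean for Nr1d2 and stood at -0.27 from it for Dbp. In the momfluorothrin group replicate 1 was highest for Per1, Cry1, Cry2 and Nfil3, replicate 2 was lowest for Arntl, Cry1, Dbp and Nfil3, and replicate 3 was highest for Arntl, Nr1d2 and Dbp.

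**Figure D3:**
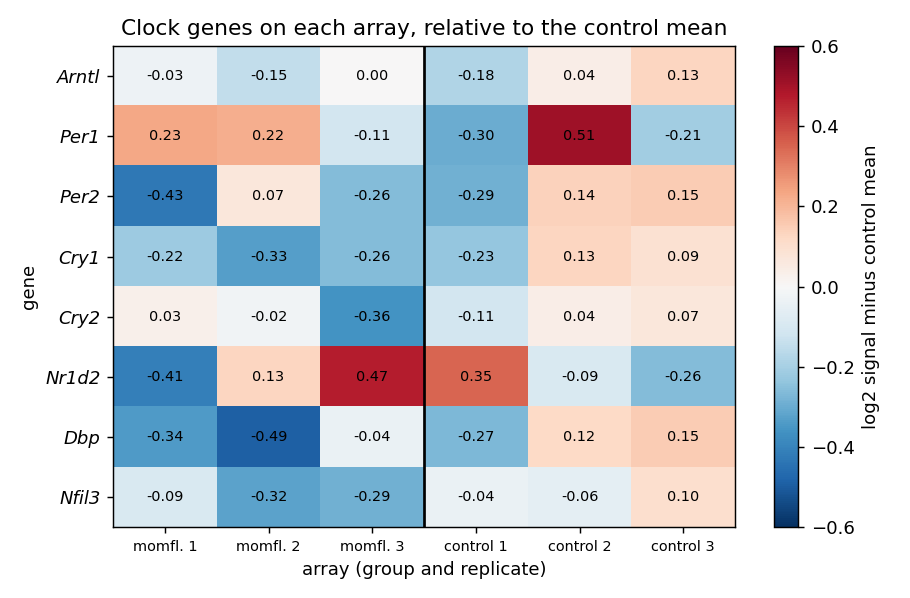
Log2 signal of the 8 tested clock genes on each array minus the control mean of that gene, with the 3 momfluorothrin arrays left of the line and the 3 control arrays right of it. Control replicate 1 is below the control mean for every gene but Nr1d2, which reads 0.35, and the widest departures are 0.51 for Per1 in control replicate 2 and -0.49 for Dbp in momfluorothrin replicate 2.

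Across the 6 arrays none of the 28 pairs of tested genes passed after adjustment, and a lone pair could not have, since the smallest p that the pairings allow, 0.00278, becomes 0.0778 when adjusted over 28 pairs (smallest adjusted p = 0.311 for Pearson and 0.49 for Spearman, exact permutation over 720 pairings, 2-sided). There were 3 pairs with an unadjusted Pearson p under 0.05. Arntl and Dbp, which run in roughly opposite phase over the day in rodent liver, correlated at Pearson r = 0.85 (exact permutation p = 0.0333, adjusted p = 0.311) and Spearman rho = 0.83 (exact permutation p = 0.0583, adjusted p = 0.49). Without the 2 arrays farthest from the Arntl median r was 0.92, after centring each group on its own mean it was 0.89, and with arrays centred on their medians it was 0.74. Cry1 and Dbp correlated at r = 0.86 (exact permutation p = 0.0292, adjusted p = 0.311) and rho = 0.71 (exact permutation p = 0.136, adjusted p = 0.49), and at r = 0.43 without the 2 arrays farthest from the Cry1 median. The r of this pair was 0.76 with groups centred on their means and 0.91 with arrays centred on their medians. Cry2 and Nr1d2 ran against each other at r = -0.84 (exact permutation p = 0.0111, adjusted p = 0.311) and rho = -0.83 (exact permutation p = 0.0583, adjusted p = 0.49), and at r = -0.66 without the 2 farthest arrays, -0.87 with centred groups and -0.72 with median-centred arrays. Within the groups of 3 arrays no correlation was tested.

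Among 9140 other named genes, the patterns most like that of Dbp over the 6 arrays were those of Tmpo, a nuclear lamina protein, Rnf223 and Pygl, the liver glycogen phosphorylase, each at Pearson r = 0.989. Those most like Arntl were Tbc1d17, Mier1 and Nudt16l1 at r = 0.997, 0.99 and 0.986. With 6 arrays and that many genes a high r is easily met, and the values describe likeness only. Pygl had signals of 718, 649 and 773 in momfluorothrin livers and 719, 835 and 850 in control livers.

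The spread between rats of 1 group, which includes differences between arrays, was moderate for the clock genes. The residual SD within groups, on the log2 scale, had a median of 0.20 over the 8 genes and of 0.19 over all tested probe sets. Nfil3, Arntl, Cry1 and Cry2 lay below that general median, at 0.11, 0.13, 0.14 and 0.17. Dbp and Per2 lay above it at 0.23 and 0.25, and Per1 and Nr1d2 were the most variable at 0.34 and 0.38, at percentiles 83.1 and 87.4 of all tested probe sets. None of the 8 exceeded the 90th percentile of all tested probe sets, which was 0.42.

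Some genes that the clock and its daily cues are known to drive had a wider spread, although the difference between lists was not tested. Of 9 rhythmic liver output genes 5 were over that 90th percentile, with a list median of 0.50. Noct, a rhythmic phosphatase that acts on NADP(H), was the widest at 1.07. It gave 108, 277 and 72.5 in momfluorothrin livers and 94.6, 170 and 35.5 in control livers, and replicate 2 was the highest of each group. Of 5 glucocorticoid-responsive genes 4 were over it, with Dusp1, a phosphatase that switches off MAP kinases, at 0.80. The lists for the other daily cues were not wide. Of 6 feeding and fasting genes 1 was over the 90th percentile (list median 0.20), and of 3 temperature-responsive genes 0 were (list median 0.18). Among 9 other clock genes 3 were over it, namely Bhlhe40 at 0.60, Npas2 at 0.50 and Csnk1e at 0.49. Bhlhe40 and Csnk1e were dim, at 28.5 and 28.9 on control replicate 3, under its median of 29.4. Csnk1e had 2 other tested probe sets, whose spread is not given. Noct, Dusp1 and these 3 were picked out after their values were seen.

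**Figure D4:**
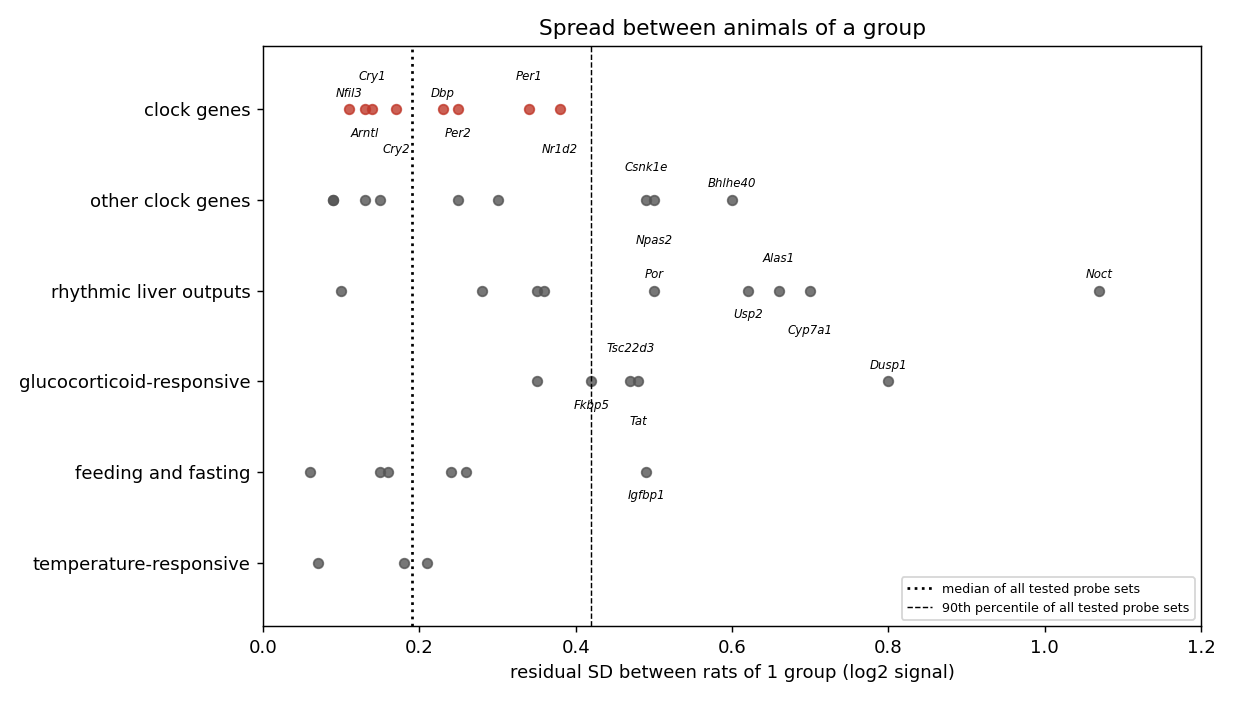
Residual SD of log2 signal between rats of 1 group, for the 8 tested clock genes (red) and the tested genes of the 5 related lists (grey), with the median (0.19, dotted) and 90th percentile (0.42, dashed) of all tested probe sets. The red points all lie left of the dashed line, while 5 rhythmic outputs and 4 glucocorticoid-responsive genes lie right of it or, for Fkbp5, just past it. Of the remaining lists, 3 other clock genes, 1 feeding and fasting gene and no temperature-responsive gene lie right of it.

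None of the 32 tested genes of the 5 related lists passed the adjusted threshold in limma, where 0.171% of all tested probe sets did. At an unadjusted limma p under 0.05, 4.92% of all tested probe sets were higher in momfluorothrin livers and 6.64% lower. Groups did not overlap in 17.8% of them, and their median log2 difference was -0.03. Of the 13 further clock genes 10 had a probe set and 9 were tested; 2 were higher at an unadjusted p under 0.05 and none lower, and the median log2 difference was 0.20. Cipc, a repressor that binds CLOCK, had 143, 159 and 184 in momfluorothrin livers and 124, 111 and 107 in control livers, a 1.42-fold difference (adjusted p = 0.218 in limma). Csnk1d, a kinase that marks the period proteins for breakdown, had 247, 269 and 284 in momfluorothrin and 212, 223 and 201 in control livers, 1.26-fold (adjusted p = 0.281 in limma). The groups did not overlap for either gene. Clock itself, the partner of ARNTL, had 233, 241 and 244 in momfluorothrin livers and 237, 245 and 210 in control livers (adjusted p = 0.854 in limma), and Npas2, which can stand in for CLOCK, had 110, 57.9 and 111 in momfluorothrin livers and 88.8, 151 and 160 in control livers (adjusted p = 0.525). Clock and Npas2 are given here, after their values were seen, as the partners of ARNTL. Csnk1d had 4 other tested probe sets and Clock had 2, whose values are not given, so these signals are of 1 probe set each.

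All 9 rhythmic outputs were tested. At an unadjusted limma p under 0.05, 3 were higher and 1 lower, against 4.92% and 6.64% of all tested probe sets. The median log2 difference was 0.45, against -0.03 over all tested probe sets, and a shift of the list was not tested. Groups did not overlap in 17.8% of all tested probe sets. Usp2, a ubiquitin protease whose transcript follows the clock in liver, gave 349, 599 and 547 in momfluorothrin livers and 181, 388 and 140 in control livers, a 2.26-fold difference (adjusted p = 0.268 in limma). Control replicate 2 overlapped the momfluorothrin range. Insig2, a sterol sensor of the endoplasmic reticulum, gave 3095, 3166 and 3657 in momfluorothrin and 4295, 4196 and 3942 in control livers, 0.796-fold with no overlap (adjusted p = 0.215 in limma). Usp2 and Insig2 each had 1 other tested probe set, whose values are not given here.

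The daily cues that set the liver clock are glucocorticoids, feeding and body temperature. Of the 5 tested glucocorticoid-responsive genes 1 was higher and 1 lower at an unadjusted p under 0.05 (median 0.42). Fkbp5, a chaperone of the glucocorticoid receptor, had 97.6, 157 and 176 in momfluorothrin livers and 98.7, 87.9 and 58.7 in control livers (adjusted p = 0.304 in limma). Sgk1, a kinase that glucocorticoids induce, ran the other way, with 176, 269 and 153 in momfluorothrin and 292, 380 and 277 in control livers (adjusted p = 0.276 in limma), and its groups did not overlap. Of the 6 tested feeding and fasting genes 1 was higher and 1 lower at an unadjusted p under 0.05 (median 0.08). Igfbp1, which insulin represses, had 1881, 2647 and 4660 in momfluorothrin livers and 1332, 1254 and 1035 in control livers (adjusted p = 0.161 in limma), and Srebf1, which insulin and feeding raise, had 187, 157 and 164 in momfluorothrin and 253, 256 and 202 in control livers (adjusted p = 0.225). The groups did not overlap for Igfbp1 or Srebf1. Over all tested probe sets groups did not overlap in 17.8%, and at an unadjusted limma p under 0.05, 4.92% were higher and 6.64% lower. Fkbp5, Srebf1 and Hsph1 each had 1 other tested probe set, whose values are not given here. None of 3 temperature-responsive genes reached an unadjusted p of 0.05 (median 0.06). Cirbp, which cold induces, averaged 132 ± 6.36 in momfluorothrin and 112 ± 5.42 in control livers, and Hsph1, a heat shock protein, averaged 578 ± 70.8 in momfluorothrin and 650 ± 84.5 in control livers (SD, n = 3 each, adjusted p = 0.456 and 0.641 in limma). The groups did not overlap for Cirbp and overlapped for Hsph1.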

How the data were processed

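Liver RNA of 6 rats was hybridised to 1-colour Affymetrix arrays, 1 per rat. The values deposited by the authors are intensities on a linear scale, 1 per probe set, and MAS5 is the tool that the submitters' processing notes name; no source used here states its settings. The number of arrays limits the precision. Control probe sets (57 of 31099) were left out. Symbols came from the platform annotation, with 20758 of 20826 single-symbol probe sets matched to GRCr8. Of probe sets annotated to several symbols (436), none named a gene.

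No pseudocount was added before taking log2. The groups were then compared in limma 3.58.1 (R 4.3.3; eBayes with an intensity trend, no block), 2-sided, momfluorothrin minus control. The brightest tested probe set stood for a gene. For genes of the related lists, the values of other tested probe sets are not given. Named beside the 10 clock genes were, for each related list, the 2 genes with the smallest p, and the 3 genes most correlated with Dbp and with Arntl. The members and lists were chosen with earlier results of these data known, so no list count is independent evidence. The fit was checked on simulated arrays, with changes put into 200 probe sets in each of 20 runs. It recovered 13.1% of log2 changes of 0.5, 53.7% of changes of 1 and 86% of changes of 2, and 3.65% of calls were false. The lack of calls therefore says little about changes of 0.5 or less, a range that holds every estimate for the tested clock genes. Some of their intervals reach past 0.5, to -0.74 for Dbp, and changes of 1 were also often missed. Alternatives changed the filter, scaling, pseudocount, variance model, array weights and block, and left out each array. Replicates are separate animals, per the labels.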

Additional observations from a re-analysis of the deposited data

How the results depend on the processing

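No clock probe set and none of the 32 tested genes of the related lists passed the adjusted threshold in limma under any of the 15 alternatives, and the number of clock probe sets at an unadjusted p under 0.05 was 0 to 2. Over 121 alternative values of the 8 tested genes 7 had the opposite sign: Arntl was 0.11 with median centring and 0.01 without control replicate 3, Cry2 was 0.05 with median centring and 0.00 without momfluorothrin replicate 3, Nr1d2 was -0.07 without control replicate 3 and -0.14 without momfluorothrin replicate 3, and Per1 was -0.04 without control replicate 1. Leaving out each array in turn gave -0.15 to 0.01 for Arntl, -0.19 to 0.00 for Cry2, -0.14 to 0.30 for Nr1d2 and -0.04 to 0.37 for Per1. The number of all probe sets past the threshold was 27, against 70 with median centring, 3 with no intensity trend, 44 with robust eBayes and 5 to 28 when each array was left out in turn (16, 5 and 8 without momfluorothrin replicates 1, 2 and 3). With a replicate block it was 15, and no clock probe set was among them. Same-numbered rats deviated from their group means at r = -0.1, 0.105 and -0.065 (the 9 combinations of numbers gave -0.1 to 0.145), and momfluorothrin replicates 1 and 3 correlated best with control replicates 3 and 1 (0.126 and 0.145), so the numbers were not taken to pair the animals. The median percentile of the residual SD of the 10 clock probe sets was 64.9, against 35.3 with no filter, where dim probe sets enter the ranking, and 50.2 to 70.5 when each array was left out; these percentiles and the scaling of the correlations were recomputed after seeing the data. No correlation passed with quantile normalization, median centring or a pseudocount of 16 (smallest adjusted p = 0.117). With 3 arrays a group, differences inside the intervals given cannot be told from none, and Nr1d1 and Per3 could not be judged.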

Other observations

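Of the 32 tested genes of the related lists, many were highest in replicate 2 of each group, which are different, unpaired rats. The lists were chosen with earlier results of these data known, so the counts are not independent evidence. Momfluorothrin replicate 3 and control replicate 1 were highest in 7 of the 32. The share of all tested probe sets for that combination was not counted, so nothing is read from the 7. Over all tested probe sets the deviations of these arrays from their group means correlated at r = 0.145, the highest of the combinations. In 12 of the 32, replicate 2 was the highest momfluorothrin rat and replicate 2 was the highest control rat, whereas this held for 12.1% of all tested probe sets. The 12 were Tef, Bhlhe40, Csnk1e, Wee1, Usp2, Alas1, Por, Noct, Tsc22d3, Sgk1, Dusp1 and Ppargc1a, a count made after the values were seen. Alas1, the rate-limiting enzyme of heme synthesis, gave 2065, 2972 and 1082 in momfluorothrin livers and 1731, 1736 and 871 in control livers. Dusp1 gave 697, 1061 and 278 in momfluorothrin livers and 558, 965 and 463 in control livers. Tsc22d3, a glucocorticoid-induced leucine zipper protein, gave 965, 1088 and 752 in momfluorothrin and 578, 1120 and 506 in control livers. The lowest of each group was replicate 3 for these 3 genes. None of the 8 tested clock genes had replicate 2 highest in both groups, though Per2 and Per1 came close. Per2 was highest in momfluorothrin replicate 2 (195), and control replicate 2 gave 205 where replicate 3 gave 207. Alas1 in turn counts among the 12 on control signals of 1736 and 1731. With 8 genes and a share of 12.1% over all tested probe sets, no contrast with the lists is drawn. Control replicate 2 was the highest control rat for Per1 and Cry1, and momfluorothrin replicate 2 was the lowest momfluorothrin rat for Cry1 (220) and was 102 for Per1, where replicate 1 gave 103. The labels give no order of sampling.

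Cyp7a1, the rate-limiting enzyme of bile acid synthesis and a rhythmic liver transcript, had 721, 303 and 211 in momfluorothrin livers and 144, 198 and 242 in control livers, with momfluorothrin replicate 1 far above the rest (log2 difference 0.91 ± 0.39, SE, adjusted p = 0.429 in limma). Nampt, the enzyme of NAD salvage that the clock drives, had 452, 738 and 666 in momfluorothrin livers and 499, 449 and 325 in control livers (log2 difference 0.54 ± 0.21, SE, adjusted p = 0.387 in limma). Cyp7a1 and Nampt are given after their values were seen, and Nampt had 1 other tested probe set, whose values are not given.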
